A study of Mus musculus with 6 samples.

Results

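The 10 genes described here encode inhibitors that MAP kinase signalling itself can induce: the dual-specificity phosphatases Dusp1, Dusp2, Dusp4, Dusp5, Dusp6, Dusp10 and Dusp16, the Sprouty proteins Spry1 and Spry2, and the Sprouty-related protein Spred1. They were chosen by name, from their known role, with earlier results of these data known, and all 10 were among the 46517 gene identifiers of the deposited tables. Each of the 10 also passed the filter on low counts that left 12407 genes for testing. They were measured by poly(A) RNA-seq in mouse CD8 T cells, the cytotoxic T lymphocytes, in 6 libraries split into 2 groups of 3. Naive T cells came from spleens and lymph nodes of C57BL/6J mice and were stimulated for 3 days on plates coated with an antibody against CD3 at 5 µg/mL, with an antibody against CD28 at 0.5 µg/mL and IL-2 at 100 units/mL. From day 1 to day 2 the cells also received medium taken from cultured basophils, rare granulocytes that release cytokines. In the IL-3 supernatant group the basophils were cultured over 2 days with IL-2 at 100 units/mL and IL-3 at 3 ng/mL, and in the PBS supernatant group with the same IL-2 and PBS. Both groups therefore received basophil medium, IL-2 and the same antibodies, and neither was left without supernatant. The labels do not say that the added IL-3 was removed from the medium, and they name no separate animals or cultures for the 3 libraries of a group. The p-values below thus reflect only how far these libraries differed from each other, a spread that may be technical.

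When the T cell receptor is engaged, Ras switches on the RAF, MEK and ERK kinases, and parallel cascades switch on JNK and p38. Active MAP kinases are phosphorylated on a threonine and a tyrosine, and a dual-specificity phosphatase removes both phosphates. Each enzyme has its own preferred kinase and place in the cell. Sprouty and Spred proteins act higher up, between the receptor and RAF. Many of these genes are transcribed in response to the pathway they inhibit, and in T cells they help to set how long an antigen signal lasts.

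After IL-3 supernatant, 5 of the 10 genes rose and 3 fell relative to PBS supernatant in edgeR's quasi-likelihood test at an adjusted p below 0.05. The rises were in Dusp10 (3.9-fold), Dusp16 (2.1-fold), Dusp5 (1.98-fold), Dusp4 (1.77-fold) and, narrowly, Dusp2 (1.12-fold). Dusp1 fell 2.07-fold, Dusp6 1.32-fold and Spry2 1.31-fold, while Spry1 and Spred1 did not pass. Of all genes tested, 30.9% passed in either direction, 14.8% higher and 16.1% lower, so changed genes were common in this comparison. The median log2 fold change of the 10 genes, IL-3 minus PBS supernatant throughout, was 0.19 and the median of its absolute size was 0.61, beside 0.00 and 0.20 over all genes tested. In 9 of the 10 genes the 3 values of one group lay outside the range of the other, which was so for 43.6% of all genes tested. In bulk RNA, fewer cells of a type and less RNA per cell cannot be told apart.

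**Figure D1:**
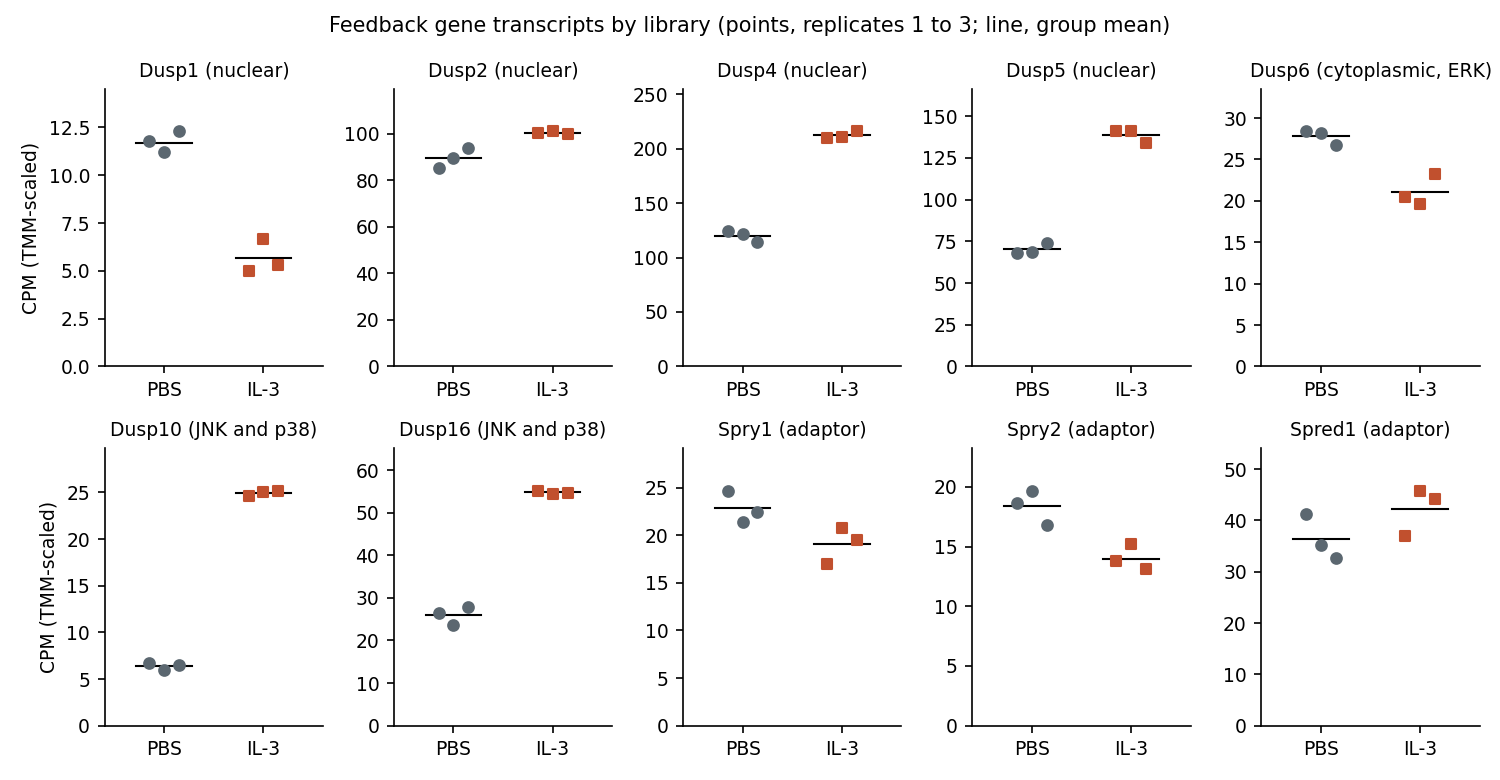
CPM, the read count scaled by the TMM-adjusted size of its library (vertical axes, each from 0), of the 10 feedback genes in the 3 PBS supernatant and 3 IL-3 supernatant libraries, with each library as a point and the group mean as a line. The groups are widely apart for Dusp10, Dusp16, Dusp4 and Dusp5, and they overlap in 1 gene, Spred1.

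Total expected counts were 17377052 to 22174902 per library. The first principal component, which separated the groups, held 63% of the variance and the second, on which PBS supernatant replicate 2 stood apart, 14.7%. In that library 4.51% of counts fell on the single gene CT010467.1, against 0.433% to 2.2% in the others, and leaving it out ended the calls of Dusp2 and Spry2 among the 10 genes. All 7 genes listed as CD8 T cell markers were detected, namely Cd8a, Cd8b1 and genes that other T cells share. Their summed level was lower after IL-3 supernatant, at 1413 to 1559 CPM against 2125 to 2286 CPM. Of the 7, 6 were lower, Cd8a most, and Cd5 was higher, at 288 to 335 CPM against 241 to 252 CPM. Of 8 basophil markers, the defining Mcpt8, Fcer1a, Ms4a2 and Prss34 were at 0 in all 6 libraries, and the list summed to at most 0.991 CPM. The 3 CD4 T cell markers summed to 6.44 to 9.29 CPM after PBS supernatant and 17.9 to 19.8 CPM after IL-3 supernatant, mostly Zbtb7b, a transcription factor of the CD4 lineage, while Cd4 itself did not exceed 0.831 CPM. The 4 dendritic cell markers, with Siglech at 0, summed to 3.08 to 5.06 CPM and 5.82 to 8.12 CPM, mostly Zbtb46. Lists for B, myeloid and NK cells reached at most 3.77 CPM in any library. The part of the lower summed CD8 T cell markers and higher Zbtb7b and Zbtb46 in the changes below was not tested.

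The 3 stretches of sequence are from Dusp1 and Dusp5, whose start regions held matches to the motifs below, and from Dusp16, with none. They come from the 250 bases before the RefSeq start (build GRCm38.p6) and are written 5′ to 3′ on the gene's strand, cut at the end nearest the start where annotated exons of the same gene begin. The 203 bases of Dusp1 thus end 47 bases short of the RefSeq start and the 214 bases of Dusp5 end 36 bases short of it, while the 250 bases of Dusp16 reach it. Capitals mark matches to any of 6 motifs, searched on both strands: the AP-1 site TGANTCA, the cyclic AMP response element TGACGTCA, the ETS core CCGGAA, the CArG box bound by serum response factor, the STAT site TTCNNNGAA and the NFAT core TGGAAA. RefSeq entries were matched for 9 of the 10 genes, with none for Dusp4. Dusp1 at chr17:26508520-26508722, minus strand, Dusp5 at chr19:53528895-53529108, plus strand, and Dusp16 at chr6:134792629-134792878, minus strand, read:
Dusp1: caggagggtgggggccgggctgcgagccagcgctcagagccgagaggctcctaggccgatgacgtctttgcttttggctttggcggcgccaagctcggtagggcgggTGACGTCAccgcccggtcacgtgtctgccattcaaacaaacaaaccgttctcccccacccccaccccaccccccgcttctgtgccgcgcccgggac
Dusp5: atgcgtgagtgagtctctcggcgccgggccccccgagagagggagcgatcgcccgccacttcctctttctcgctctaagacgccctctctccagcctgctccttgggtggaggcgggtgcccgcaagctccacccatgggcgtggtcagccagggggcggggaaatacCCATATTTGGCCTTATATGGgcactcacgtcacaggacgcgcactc
Dusp16: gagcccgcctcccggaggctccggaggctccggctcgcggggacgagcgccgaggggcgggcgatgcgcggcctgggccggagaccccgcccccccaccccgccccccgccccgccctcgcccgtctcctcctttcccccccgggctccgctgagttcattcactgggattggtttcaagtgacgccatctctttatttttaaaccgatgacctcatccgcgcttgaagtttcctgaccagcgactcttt

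Dusp1 held TGACGTCA from 143 to 136 bases before the RefSeq start, a motif found in 1.55% of the 32851 windows of 250 bases before a RefSeq start. Dusp5 held a pair of adjoining CArG boxes, CCATATTTGG from 82 to 73 and CCTTATATGG from 72 to 63 bases before the RefSeq start. A CArG box was found in 1.47% of all windows. No other window of the 9 held any of the 6 motifs, whose shares over all windows were 6.75% for AP-1, 12% for ETS, 7.02% for STAT and 18.6% for NFAT. The windows without a match belonged to genes that rose, among them Dusp10, to genes that fell and to genes that did not pass. These matches describe letters in a window and no binding was measured. A link between the motifs and the direction of change was not tested. The Dusp1 stretch lies inside the span annotated for that gene, chr17:26505590-26562128, and so precedes a RefSeq start within it. The whole Dusp5 stretch lies in exons of AC137853.2, a gene annotated on the opposite strand.

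Among the inducible phosphatases of the nucleus, Dusp4 and Dusp5 rose, Dusp2 rose slightly and Dusp1 fell. Dusp5 (ENSMUSG00000034765, chr19:53529109-53542431, plus strand) acts on ERK and holds it in the nucleus. It measured 67.9, 68.7 and 74.2 CPM in PBS supernatant replicates 1 to 3 and 141, 141 and 134 CPM in the IL-3 supernatant replicates. The groups lay 59.7 CPM apart. The mean went from 70.3 ± 3.41 to 139 ± 4.21 CPM (SD, n = 3 libraries a group, as for every mean below), with a log2 fold change of 0.98 (SE 0.06, 95% interval 0.86 to 1.11, edgeR adjusted p = 1.5e-09). Of the exon bases of Dusp5, 547 (22.1%) are shared with AC137853.2, which has no counts of its own in the deposited data. As the strand setting of the counting is not given, reads from the pair in those bases cannot be told apart.

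Dusp4 (ENSMUSG00000031530, chr8:34807297-34819894, plus strand), a nuclear phosphatase of ERK and JNK, measured 124, 122 and 114 CPM after PBS supernatant and 210.3, 211 and 216 CPM after IL-3 supernatant. Every IL-3 supernatant library was above every PBS supernatant library, by at least 86.7 CPM. Its mean rose from 119.9 ± 5.13 to 213 ± 3.05 CPM, with a log2 fold change of 0.83 (SE 0.05, 95% interval 0.71 to 0.94, edgeR adjusted p = 4.1e-09).

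Dusp2 (ENSMUSG00000027368, chr2:127336159-127338376, plus strand), a nuclear phosphatase found mainly in blood cells, measured 85.1, 89.4 and 93.9 CPM after PBS supernatant and 100.1, 101 and 99.7 CPM after IL-3 supernatant. The groups did not overlap, with 5.8 CPM between them, but the change was the smallest among the 8 genes that passed. Its mean went from 89.5 ± 4.41 to 100.2 ± 0.562 CPM, with a log2 fold change of 0.16 (SE 0.06, 95% interval 0.04 to 0.29, edgeR adjusted p = 0.042). Leaving out any 1 library except PBS supernatant replicate 3 ended the call, with edgeR adjusted p between 0.08 and 0.111, and DESeq2 gave an adjusted p of 0.063.

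Dusp1 (ENSMUSG00000024190, chr17:26505590-26562128, minus strand) encodes the immediate-early nuclear phosphatase MKP-1, which prefers p38 and JNK. It measured 11.8, 11.2 and 12.3 CPM after PBS supernatant and 5.00, 6.66 and 5.31 CPM after IL-3 supernatant. All 3 IL-3 supernatant libraries were lower, and the nearest pair was 4.53 CPM apart. The mean fell from 11.7 ± 0.534 to 5.66 ± 0.887 CPM, with a log2 fold change of -1.05 (SE 0.15, 95% interval -1.37 to -0.73, edgeR adjusted p = 4.1e-05). These values rest on 202 to 215 and 97 to 148 expected counts per library. Only 11 of its exon bases (0.332%) are shared with Ergic1 on the opposite strand, which was also lower.

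Dusp6 (ENSMUSG00000019960, chr10:99263231-99267489, plus strand) is a phosphatase of the cytoplasm that acts on ERK and is a widely used readout of ERK activity. It measured 28.4, 28.2 and 26.8 CPM after PBS supernatant and 20.5, 19.6 and 23.2 CPM after IL-3 supernatant. It was lower in all 3 IL-3 supernatant libraries, opposite in direction to Dusp5, an ERK phosphatase of the nucleus. The mean fell from 27.8 ± 0.867 to 21.1 ± 1.9 CPM, with a log2 fold change of -0.40 (SE 0.09, 95% interval -0.60 to -0.20, edgeR adjusted p = 0.0038). The call was lost with limma on unfiltered log2(TPM + 1) (adjusted p = 0.061) and in edgeR's test against a fold of 1.2 (adjusted p = 0.138).

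Dusp10 and Dusp16, phosphatases of JNK and p38, had the 2 largest rises of the 10 genes, whereas Dusp1, which prefers the same kinases, fell. Dusp10 (ENSMUSG00000039384, chr1:184013302-184075636, plus strand) encodes MKP-5, which acts on p38 and JNK. It measured 6.68, 5.98 and 6.50 CPM after PBS supernatant and 24.6, 25 and 25.2 CPM after IL-3 supernatant. The lowest IL-3 supernatant library was 17.9 CPM above the highest PBS supernatant library. The mean rose from 6.39 ± 0.36 to 24.9 ± 0.333 CPM, with a log2 fold change of 1.96 (SE 0.11, 95% interval 1.73 to 2.2, edgeR adjusted p = 6.2e-10). Of all genes tested, 98.4% had a lower log2 fold change than Dusp10.

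Dusp16 (ENSMUSG00000030203, chr6:134715468-134792625, minus strand) encodes MKP-7, a JNK phosphatase. It measured 26.5, 23.7 and 27.9 CPM after PBS supernatant and 55.2, 54.5 and 54.6 CPM after IL-3 supernatant. The groups were 26.6 CPM apart. The mean rose from 26 ± 2.13 to 54.8 ± 0.381 CPM, with a log2 fold change of 1.07 (SE 0.08, 95% interval 0.90 to 1.25, edgeR adjusted p = 2.7e-08). Its percentile among all genes tested was 95.3. Neither Dusp10 nor Dusp16 shares exon bases with the gene annotated across it.

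Of the 3 adaptors, Spry2 fell, and neither Spry1 nor Spred1 passed. Spry2 (ENSMUSG00000022114, chr14:105891947-105896819, minus strand), an inhibitor of receptor signals to Ras and ERK, measured 18.7, 19.7 and 16.8 CPM after PBS supernatant and 13.8, 15.2 and 13.1 CPM after IL-3 supernatant. All 3 IL-3 supernatant libraries were lower, and the groups were 1.6 CPM apart. The mean fell from 18.4 ± 1.47 to 14 ± 1.07 CPM, with a log2 fold change of -0.39 (SE 0.11, 95% interval -0.62 to -0.16, edgeR adjusted p = 0.013). The call was lost without IL-3 supernatant replicate 3 (edgeR adjusted p = 0.062), and likewise when PBS supernatant replicate 2 was left out (0.074).

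Spry1 (ENSMUSG00000037211, chr3:37639947-37644598, plus strand), its paralogue, measured 24.7, 21.4 and 22.5 CPM after PBS supernatant and 17.0, 20.8 and 19.5 CPM after IL-3 supernatant. The groups did not overlap, but only 0.687 CPM lay between them. The means were 22.9 ± 1.67 and 19.1 ± 1.92 CPM, with a log2 fold change of -0.26 (SE 0.10, 95% interval -0.48 to -0.04) that missed the threshold in edgeR (adjusted p = 0.071, unadjusted p = 0.024). Its exons share 710 bases (24.4%) with Gm42922 on the opposite strand, which was assigned 0.154 to 0.445 CPM per library. The deposited counts of Spry1 held fractions in all 6 libraries, so some reads were divided between features. Which features shared them was not tested.

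Spred1 (ENSMUSG00000027351, chr2:117121374-117182279, plus strand) brings neurofibromin, which switches Ras off, to the cell membrane. It measured 41.3, 35.2 and 32.6 CPM after PBS supernatant and 37.0, 45.8 and 44.1 CPM after IL-3 supernatant. The groups overlapped, because PBS supernatant replicate 1 was above IL-3 supernatant replicate 1. The means were 36.4 ± 4.45 and 42.3 ± 4.69 CPM, with a log2 fold change of 0.22 (SE 0.10, 95% interval 0.00 to 0.44, edgeR adjusted p = 0.124). Without IL-3 supernatant replicate 1 the change was 0.31 (edgeR adjusted p = 0.048), and 0.32 when PBS supernatant replicate 1 was left out (0.018). Leaving out either of these libraries thus gained the call, and leaving out any other did not.

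**Figure D2:**
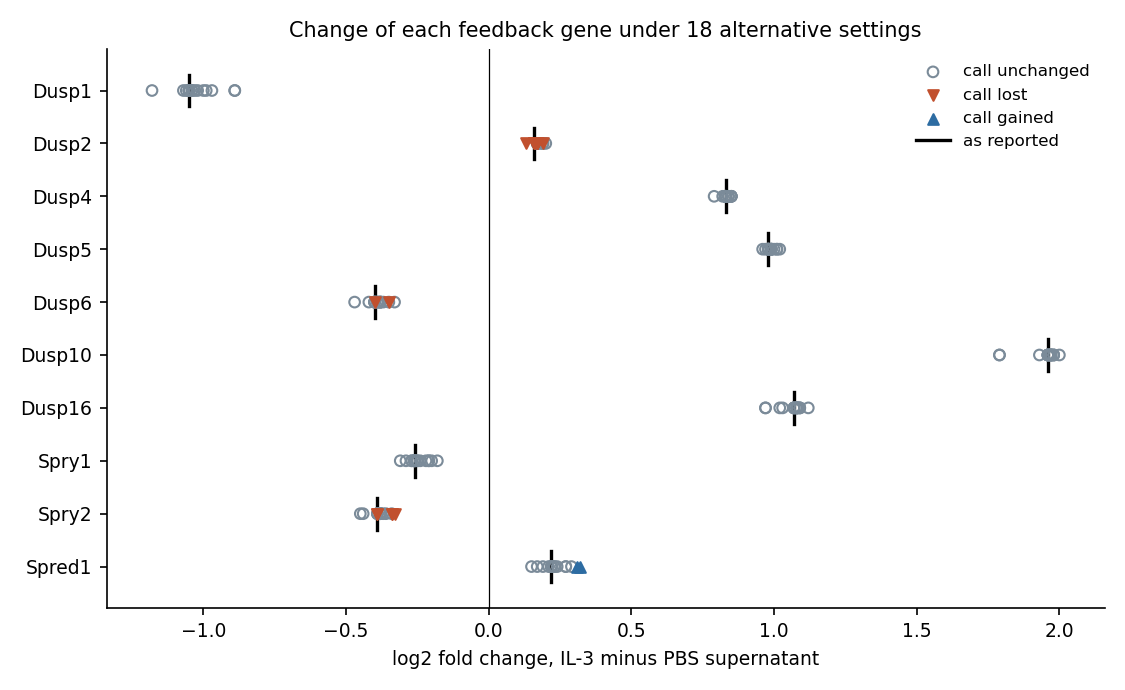
Log2 fold change of each feedback gene (horizontal axis, IL-3 minus PBS supernatant) as reported, shown as a vertical line, and under each of 18 alternative settings, with circles where the call was unchanged and triangles where it was lost (down) or gained (up). No gene changes side of 0, calls are lost for Dusp2, Dusp6 and Spry2, and they are gained for Spred1.

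Levels were compared between genes in TPM, the deposited values scaled for transcript length. After PBS supernatant the most abundant were Dusp2 at 111 ± 6.85 TPM, Dusp4 at 84.2 ± 4.3 TPM and Dusp5 at 54.7 ± 3.58 TPM, with no overlap between neighbours. The other 7 lay far lower, from Dusp6 at 19.1 TPM through Spry1 (17.6), Spry2 (17), Spred1 (12), Dusp1 (11.6) and Dusp16 (10.5) to Dusp10 at 4.41 TPM. In this order the ranges of Dusp6 and Spry1, Spry1 and Spry2, Spred1 and Dusp1, and Dusp1 and Dusp16 overlapped. Dusp10 was below every other gene of the set in all 3 libraries.

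After IL-3 supernatant the order in TPM was different. Dusp4 was the most abundant at 152 ± 3.37 TPM, then Dusp2 at 126 ± 0.627 TPM and Dusp5 at 109.8 ± 2.48 TPM, again without overlap. Dusp16 (21.3 TPM) and Dusp10 (17.6 TPM) came next, above Spry1 (15.1), Dusp6 (14.8), Spred1 (14.6) and Spry2 (13.2), which overlapped neighbour by neighbour, and Dusp1 was the lowest at 5.79 TPM. The TPM of Dusp4 over that of Dusp2 was 0.825, 0.78 and 0.685 after PBS supernatant and 1.19, 1.19 and 1.23 after IL-3 supernatant. The ratio of Dusp10 to Dusp1, both of which act on p38 and JNK, went from 0.389, 0.381 and 0.369 to 3.2, 2.69 and 3.31. That of Dusp5 to Dusp6, a nuclear over a cytoplasmic ERK phosphatase, went from 2.71, 2.75 and 3.13 to 7.78, 8.16 and 6.52. None of these 3 ratios overlapped between the groups. For Dusp10 over Dusp1 and for Dusp5 over Dusp6 this follows from the opposite changes of the genes given above. For Dusp4 over Dusp2 it follows from the larger rise of Dusp4, so all 3 ratios restate changes already given. The summed level of the 10 genes was 350.1, 326 and 349.8 TPM after PBS supernatant and 484, 493 and 495 TPM after IL-3 supernatant, with most of it in Dusp2, Dusp4 and Dusp5.

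**Figure D3:**
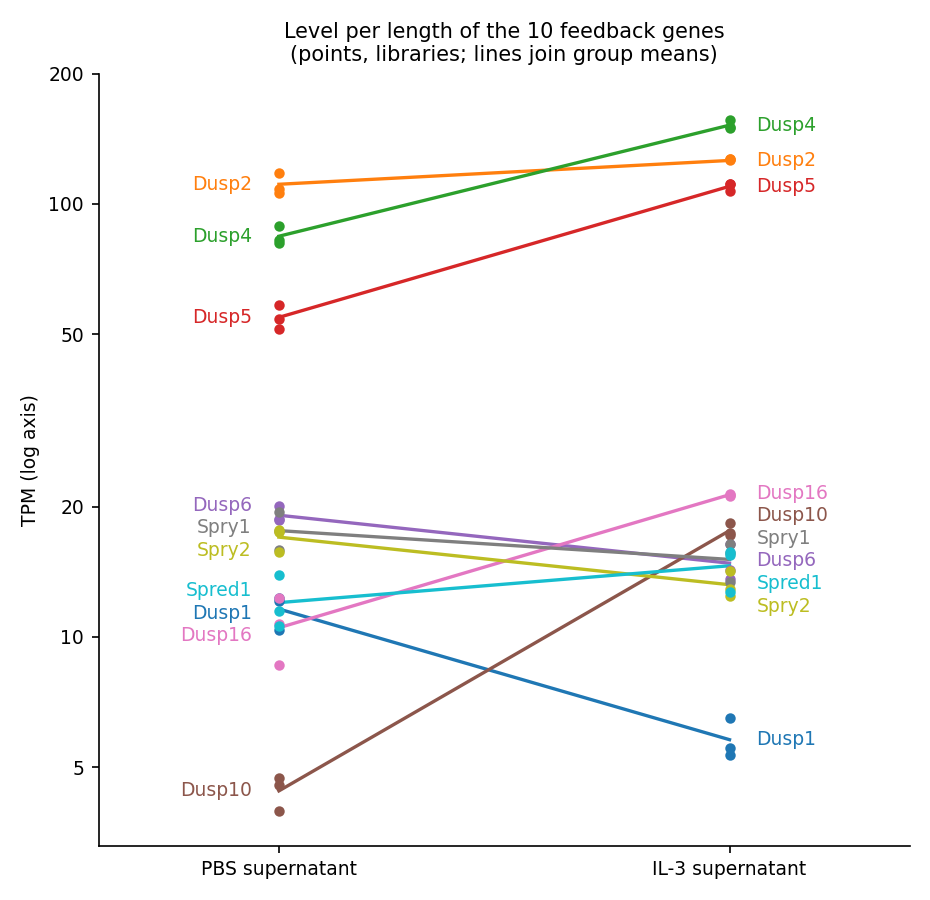
TPM of the 10 feedback genes (log axis) in each library of the PBS supernatant and IL-3 supernatant groups, with lines joining the group means. The lines of Dusp4 and Dusp2 cross, and Dusp10 goes from the lowest mean, 4.41 TPM, to the fifth, while Dusp1 goes to the lowest, 5.79 TPM.

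The other genes of the same families did not move as one. Of 13 tested other dual-specificity phosphatases, from a list of 16, 2 rose, 3 fell and 8 did not pass, with a median log2 fold change of -0.01. For this list and those below, the shares over all genes tested were 14.8% higher and 16.1% lower. Dusp3, a small phosphatase of ERK and JNK, rose from 7.94 ± 0.463 to 14.5 ± 1.56 CPM (log2 0.87, edgeR adjusted p = 7.3e-05), and Dusp18 from 1.69 ± 0.676 to 4.07 ± 0.882 CPM (log2 1.26, 0.0069). The Dusp18 call was lost without IL-3 supernatant replicate 1 (edgeR adjusted p = 0.057). Dusp22, a phosphatase that restrains Lck in T cells, fell from 9.17 ± 0.558 to 5.85 ± 0.685 CPM (log2 -0.65, edgeR adjusted p = 0.0039). Ssh2, a phosphatase of the actin regulator cofilin, fell from 104 ± 5.14 to 73.8 ± 5.16 CPM (log2 -0.50, edgeR adjusted p = 1.7e-05). Dusp7, the nearest relative of Dusp6, fell by 0.28 on the log2 scale (edgeR adjusted p = 0.035), a call lost in 14 of 18 alternatives, among them leaving out either of IL-3 supernatant replicates 2 and 3 or any PBS supernatant library.

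Of the 3 tested other Sprouty and Spred genes, from a list of 4, 1 rose and 1 fell. Spred2, an adaptor that inhibits Ras-ERK signalling like Spred1, fell from 33.9 ± 3.86 to 24.9 ± 1.68 CPM (log2 -0.45, edgeR adjusted p = 0.0021). Spred3 was scarce and rose from 0.893 ± 0.415 to 2.41 ± 0.591 CPM (log2 1.42, edgeR adjusted p = 0.013). That call was lost without IL-3 supernatant replicate 1 (edgeR adjusted p = 0.083) or PBS supernatant replicate 3 (0.064). Spry4 had a log2 fold change of -0.12 (edgeR adjusted p = 0.802).

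**Figure D4:**
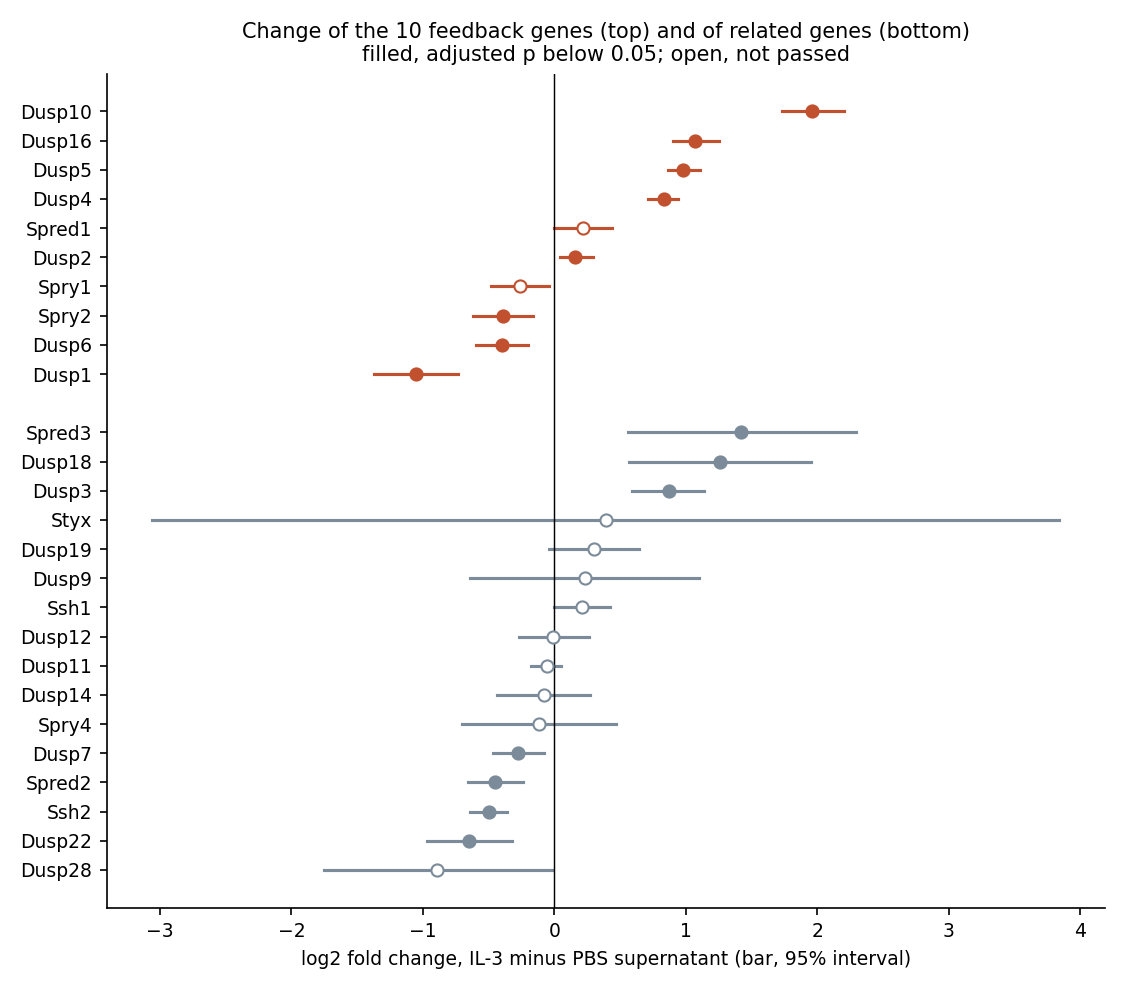
Log2 fold change (horizontal axis, IL-3 minus PBS supernatant, with its 95% interval from edgeR) of the 10 feedback genes in the upper block and of the 16 tested relatives in the lower block, each ordered by size and filled where the adjusted p was below 0.05. Among the 10, Dusp10 lies farthest to the right at 1.96 and Dusp1 farthest to the left at -1.05; in the lower block the 6 filled points besides Dusp7 are Spred3, Dusp18, Dusp3, Spred2, Ssh2 and Dusp22.

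Upstream, in the list of Ras activators and the RAF-MEK-ERK cascade, 5 of 22 tested genes rose, 5 fell and 12 did not pass, with a median log2 fold change of 0.09. Rasgrp2, an exchange factor that activates Rap and Ras proteins, fell from 31.9 ± 2.86 to 3.6 ± 0.443 CPM (log2 -3.14, SE 0.13, edgeR adjusted p = 1.1e-11). Rasgrp1, the exchange factor that activates Ras below the T cell receptor, fell from 121 ± 1.9 to 83.8 ± 4.37 CPM (log2 -0.53, edgeR adjusted p = 2.5e-06). Rras2, a small GTPase related to Ras, fell by 0.83 on the log2 scale (edgeR adjusted p = 7.9e-09). In contrast, Ksr1, a scaffold that holds RAF, MEK and ERK together, rose from 22.4 ± 3.33 to 57.5 ± 2.05 CPM (log2 1.36, edgeR adjusted p = 1.3e-08). Map3k8, a kinase that activates MEK, rose from 37 ± 0.724 to 70.7 ± 2.99 CPM (log2 0.94, edgeR adjusted p = 2.0e-08). Mapk3, the ERK1 kinase itself, had a log2 fold change of 0.22 that did not pass (edgeR adjusted p = 0.093).

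**Figure D5:**
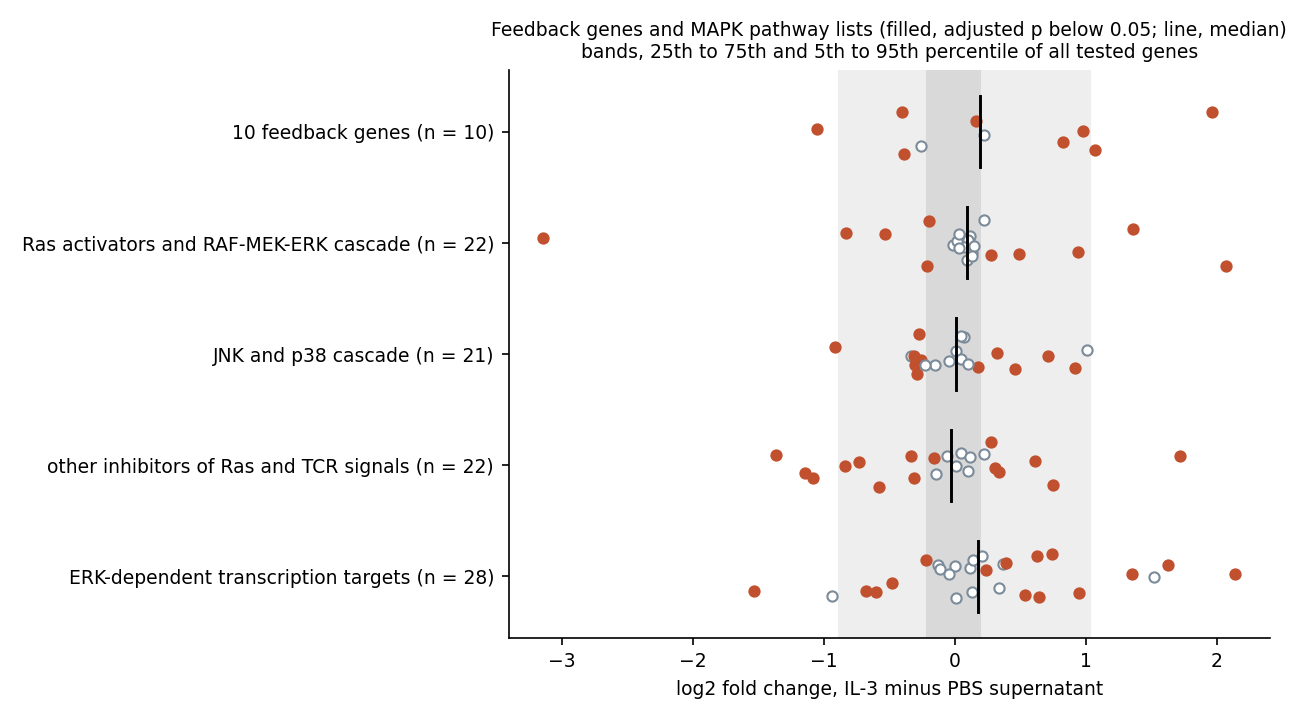
Log2 fold change (IL-3 minus PBS supernatant) of every tested gene of the feedback set and of 4 lists of pathway genes, filled where the edgeR adjusted p was below 0.05, with the median of each list as a line and bands for the middle of the distribution over all genes tested. The medians lie between -0.02 and 0.19, and each list holds genes on both sides of 0.

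In the JNK and p38 cascade, whose kinases Dusp10 and Dusp16 act on, 5 of 21 tested genes rose, 6 fell and 10 did not pass, with a median of 0.01. Gadd45b and Gadd45g, stress-induced proteins that activate the kinase MEKK4, rose from 27.6 ± 2.96 to 45.1 ± 1.63 CPM (log2 0.71, edgeR adjusted p = 1.1e-05) and from 20.4 ± 0.129 to 38.6 ± 5.69 CPM (log2 0.92, 3.3e-06). Mapkapk2, a kinase activated by p38, rose from 211 ± 6.4 to 289.8 ± 9.27 CPM (log2 0.46, edgeR adjusted p = 3.3e-06). Map3k5, the stress kinase ASK1, fell from 50.8 ± 5.89 to 27.1 ± 2.38 CPM (log2 -0.91, edgeR adjusted p = 1.8e-06). The count of 6 lower genes went to 3 without PBS supernatant replicate 3.

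Of 22 inhibitors of Ras and T cell receptor signals outside these families, 6 rose, 9 fell and 7 did not pass, with a median of -0.02. The 4 with the smallest p all fell. Dgka and Dgkz, kinases that remove the Ras-activating lipid diacylglycerol, fell from 206 ± 13.5 to 93.5 ± 1.42 CPM (log2 -1.14, edgeR adjusted p = 2.3e-10) and from 272 ± 16.2 to 164 ± 10.7 CPM (log2 -0.73, 8.8e-08). Ubash3b, a phosphatase of receptor-proximal tyrosine kinases, fell from 84 ± 2.37 to 39.8 ± 0.373 CPM (log2 -1.08, edgeR adjusted p = 1.3e-09). Rasa3, which switches off Ras and Rap1, fell from 42.9 ± 4.75 to 16.7 ± 1.58 CPM (log2 -1.36, edgeR adjusted p = 2.5e-08).

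In a list of genes linked to ERK-dependent transcription, 10 of 28 rose, 5 fell and 13 did not pass, with a median of 0.18. The list holds both targets and transcription factors of the pathway, and their dependence on ERK was not tested. Ier3, an early response gene, rose from 7.78 ± 0.877 to 34.4 ± 5.13 CPM (log2 2.14, edgeR adjusted p = 1.5e-09). Fosl2, an AP-1 subunit, rose from 62.7 ± 4.63 to 159.9 ± 5.9 CPM (log2 1.35, edgeR adjusted p = 8.1e-11), and Plaur, the urokinase receptor, from 7.7 ± 1.04 to 23.8 ± 1.46 CPM (log2 1.63, 2.1e-08). The 3 early growth response factors went different ways: Egr2 rose by 0.64 (edgeR adjusted p = 1.0e-05), Egr3 fell by 1.53 on the log2 scale (6.5e-10), and Egr1 had a log2 fold change of 0.01 (0.898). Fos rose from 6.1 ± 0.749 to 11.8 ± 0.455 CPM (log2 0.95, edgeR adjusted p = 6.7e-05). Etv5, an ETS factor often read beside Dusp6 and the Sprouty genes, rose from 5.56 ± 0.88 to 8.61 ± 0.817 CPM (log2 0.63, edgeR adjusted p = 0.008), while Dusp6 and Spry2 fell. Myc fell by 0.22 on the log2 scale (edgeR adjusted p = 0.0088), a call lost without IL-3 supernatant replicate 2 (0.066) or PBS supernatant replicate 2 (0.052).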

How the data were processed

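RNA from 6 samples of mouse CD8 T cells was sequenced after poly(A) capture with an Illumina TruSeq kit, per the labels' protocols. RSEM 1.2.12, Bowtie2 2.2.0, edgeR 3.20.9 and GRCm38 are named per the submitters' processing notes. For their roles, the annotation and the strand setting, nothing is given in the sources used here. Each library has a table of expected counts per gene, deposited by the authors, in which a read that fits several features is divided among them. The authors also deposited TPM, which is scaled for transcript length and library. For PBS supernatant replicate 2 that table is by isoform, and the 99.7% of its TPM that could be matched were summed by gene; the other 5 libraries have gene values. Symbols matched 46005 of 46517 identifiers, and coordinates are those of GENCODE's annotation of GRCm38.

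Expected counts were rounded and tested in edgeR 4.0.16 (R 4.3.3) with filterByExpr, TMM factors and a quasi-likelihood fit on group, adjusted by Benjamini-Hochberg over 12407 genes with a threshold of 0.05. The common biological coefficient of variation was 0.0939. CPM use TMM-scaled library sizes. Same-group libraries differed by more than sampling noise over all genes together, which does not settle whether they came from separate animals or cultures. The 10 genes and the lists were chosen with earlier results of these data known. Outside the 10, the text names every related phosphatase, Sprouty or Spred gene that passed, the 4 genes with the smallest p in each other list, and a preset panel (Rasgrp1, Map3k8, Mapk3, Egr1, Egr2, Egr3, Fos, Etv5 and Myc). A further panel gene is not reported here. Spry4, the marker genes and the genes overlapping the 10 were named after their values were seen. The 18 alternatives covered scaling, low-count filters, each library left out, a replicate block, DESeq2 1.42.0, limma 3.58.1 (voom on counts, and log2 TPM with a pseudocount of 1 or 0.1), a test against a fold of 1.2 and an adjusted p below 0.01. Tables and plots were made with Python 3.11.15, pandas 2.3.3 and matplotlib 3.10.9.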

Additional observations from a re-analysis of the deposited data

How the results depend on the processing

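Of the 10 genes, 6 (Dusp1, Dusp4, Dusp5, Dusp10, Dusp16 and Spry1) kept their direction and their side of the threshold in all 18 alternatives. For Spry1 that side was not passing, which a stricter threshold cannot change. Of the 30 other named genes, 22 likewise kept both. With 3 libraries a group and a change of 1.12-fold to 1.32-fold, the calls of Dusp2, Dusp6 and Spry2 were the ones lost in some alternatives, and Spred1 gained a call in 2. Leaving out 1 library at a time gave 4 to 5 higher and 2 to 3 lower of the 10, and 1456 to 1916 higher and 1601 to 2102 lower of all genes, against 1834 and 2001. In the lists the same gave 1 to 3 higher other dual-specificity phosphatases, 0 to 1 higher other Sprouty and Spred genes, and 3 to 6 lower genes of the JNK and p38 cascade.

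With limma on log2(TPM + 1) and no filter, 1114 genes were higher and 1030 lower, with 1 of the 10 feedback genes lower, 0 higher and 1 lower of the other dual-specificity phosphatases, 0 higher and 0 lower of the other Sprouty and Spred genes, 3 lower in the Ras and ERK list, 1 lower in the JNK and p38 list and 3 higher among other inhibitors. Against a fold of 1.2 in edgeR, 928 were higher and 937 lower, with 1 feedback gene lower, 0 other Sprouty and Spred genes lower, 3 lower Ras and ERK genes, 3 higher and 1 lower JNK and p38 genes and 3 higher other inhibitors. At an adjusted p below 0.01, 1217 genes were higher, with 0 other Sprouty and Spred genes higher and 3 JNK and p38 genes lower. Filtered log2 TPM gave, with a pseudocount of 1 or 0.1, 0 higher other Sprouty and Spred genes and 3 lower JNK and p38 genes. The stricter thresholds let fewer genes pass by construction, and Spred3, the 1 higher Sprouty or Spred relative, was removed by the filter on mean TPM. For the other TPM counts the cause was not tested. Egr1, near 0, was reversed without PBS supernatant replicate 2 (-0.02, with a range of -0.02 to 0.04 over the libraries left out); the cause was not tested.

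The labels do not say that replicate numbers pair the libraries. Deviations of same-numbered libraries correlated at -0.148, 0.052 and 0.255, and not every library correlated best with its own number. With 3 libraries a group, these correlations cannot settle whether the libraries were paired. With a replicate block, 1634 genes were higher and 1776 lower, with 4 of the 10 feedback genes higher and 3 lower. Dusp2 (edgeR adjusted p = 0.082) and Dusp7 (0.058) were among the calls lost.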

Other observations

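Transcript isoforms were deposited for 1 library, PBS supernatant replicate 2, so they describe that library and have no comparison. Dusp4, Dusp5, Dusp6 and Spry2 had 1 annotated isoform each in that table. The main isoform held 77.9% of the 10.4 TPM of Dusp1, 85.5% of the 15.9 TPM of Spry1, 92.6% of the 11.5 TPM of Spred1, 93.9% of the 106 TPM of Dusp2 and 98.7% of the 8.63 TPM of Dusp16. Dusp1 and Spry1 were thus the feedback genes with the largest share of TPM outside their main isoform.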
